A study of Mus musculus with 22 samples.

Results

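Stable promoter ATAC peaks are the stretches of open chromatin at transcription start sites (TSS) of mouse embryonic stem (ES) cells that were found in every ATAC-seq library of the series, with and without knockdown (KD) of TERRA, the telomeric repeat-containing RNA. They were chosen by the ATAC-seq peak lists themselves. A member is a peak of the list of scramble KD replicate 1 that shared at least 1 bp with a peak in each of the other 3 ATAC lists and lay within 1 kb of the TSS of a curated RefSeq gene on GRCm38 (mm10). Of 78571 peaks in that list, 56646 (72.1%) were present in all 4 lists, 15734 (20.03%) lay within 1 kb of a TSS, and 14409 (18.3%) met both conditions. The openness of the members and their sharing between the ATAC lists are therefore set by the choice and are described without a test. What is compared here is what the choice did not use, namely the ATRX, H3K9me3 and G-quadruplex (G4) peaks that lay on them.

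All cells were 16.7 mouse ES cells, an XX line from a cross of CAST/Ei and 129/Sv/Jae mice. They were grown with serum and leukemia inhibitory factor and freed of feeder cells before nucleofection. The scramble KD cells received a scramble locked nucleic acid gapmer and the TERRA KD cells a gapmer against TERRA, and both were collected 12 h later. Each condition had 2 libraries (replicates 1 and 2) of ATRX, H3K9me3 and G4 ChIP-seq and of ATAC-seq. The study calls its ATRX and G4 ChIP-seq replicates biological, but neither it nor the labels say whether the libraries came from separate cultures, so any p-value measures only the spread between these libraries, which may be technical.

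A promoter is the DNA around the start of a gene where transcription factors and RNA polymerase assemble. Promoters of widely used genes tend to be kept free of nucleosomes, rich in CpG dinucleotides and accessible to the Tn5 transposase, whose cuts ATAC-seq reads. Guanine-rich DNA can fold into a G4, a stack of guanine tetrads, and the G4 ChIP-seq recovered such structures with the BG4 antibody. ATRX is a chromatin remodeler that, with DAXX, deposits histone H3.3 at repetitive DNA, and H3K9me3 is the histone mark of constitutive heterochromatin, which is usually kept away from active promoters.

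To show what such peaks look like, 300 bases centred on the ATAC summit are printed for 6 members that return in the results, because they carry the combinations of marks described there. They run 5′ to 3′ on the strand of the gene and were read from GRCm38, and capitals mark a G4 motif (4 runs of at least 3 guanines, or of at least 3 cytosines where the motif lies on the other strand, with loops of 1 to 7 bases). Vmn2r29 carried ATRX and H3K9me3 peaks in all 4 lists (chr7:7277971-7278270, minus strand). Gpha2 carried G4 peaks in all 4 lists (chr19:6226254-6226553, plus strand), and Tspyl3 carried them in both scramble KD lists and in neither TERRA KD list (chr2:153225015-153225314, minus strand). Ctxn1 carried ATRX peaks in both TERRA KD lists and in neither scramble KD list (chr8:4258984-4259283, minus strand). Pou5f1 (chr17:35504785-35505084, plus strand) and Rpl3 (chr15:80083298-80083597, minus strand) had no G4 peak in any list.
Vmn2r29: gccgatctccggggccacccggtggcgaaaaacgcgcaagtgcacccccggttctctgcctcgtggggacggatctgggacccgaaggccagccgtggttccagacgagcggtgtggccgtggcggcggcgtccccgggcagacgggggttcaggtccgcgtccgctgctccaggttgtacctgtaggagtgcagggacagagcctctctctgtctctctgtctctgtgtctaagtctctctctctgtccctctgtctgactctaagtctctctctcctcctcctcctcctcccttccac
Gpha2: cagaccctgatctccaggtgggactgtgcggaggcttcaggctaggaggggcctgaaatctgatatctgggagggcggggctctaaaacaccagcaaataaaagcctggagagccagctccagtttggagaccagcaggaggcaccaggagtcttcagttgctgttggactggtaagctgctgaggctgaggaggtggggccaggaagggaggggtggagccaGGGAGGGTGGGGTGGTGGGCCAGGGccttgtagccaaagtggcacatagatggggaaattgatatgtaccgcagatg
Tspyl3: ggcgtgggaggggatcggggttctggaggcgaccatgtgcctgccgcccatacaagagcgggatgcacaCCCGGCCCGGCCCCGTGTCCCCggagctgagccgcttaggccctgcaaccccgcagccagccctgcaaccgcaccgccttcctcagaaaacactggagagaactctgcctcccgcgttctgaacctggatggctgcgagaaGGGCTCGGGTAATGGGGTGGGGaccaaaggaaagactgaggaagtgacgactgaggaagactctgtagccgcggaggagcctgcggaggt
Ctxn1: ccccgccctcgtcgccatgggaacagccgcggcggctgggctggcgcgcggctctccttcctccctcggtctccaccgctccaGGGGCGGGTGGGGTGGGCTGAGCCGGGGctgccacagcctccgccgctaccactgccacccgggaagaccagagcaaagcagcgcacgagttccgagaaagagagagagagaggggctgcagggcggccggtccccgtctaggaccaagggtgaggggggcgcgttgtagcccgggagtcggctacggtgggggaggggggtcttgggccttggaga
Pou5f1: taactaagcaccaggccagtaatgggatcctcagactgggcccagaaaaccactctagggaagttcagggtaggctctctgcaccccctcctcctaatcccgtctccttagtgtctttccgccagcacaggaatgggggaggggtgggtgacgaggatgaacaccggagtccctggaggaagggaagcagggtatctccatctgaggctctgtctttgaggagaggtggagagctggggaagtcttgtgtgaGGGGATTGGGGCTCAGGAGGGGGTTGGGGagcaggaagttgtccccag
Rpl3: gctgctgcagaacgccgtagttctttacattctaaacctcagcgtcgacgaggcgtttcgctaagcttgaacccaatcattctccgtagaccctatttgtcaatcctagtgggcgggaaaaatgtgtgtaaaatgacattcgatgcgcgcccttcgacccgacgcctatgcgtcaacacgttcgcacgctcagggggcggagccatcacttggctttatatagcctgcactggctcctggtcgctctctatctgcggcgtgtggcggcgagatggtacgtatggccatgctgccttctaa
The window of Tspyl3 held 2 separate G4 motifs, those of Gpha2, Ctxn1 and Pou5f1 held 1, and those of Vmn2r29 and Rpl3 held none. Their CpG content ranged from 3 dinucleotides in Gpha2 to 27 in Ctxn1. The Pou5f1 summit lies at -1097 bp from the annotated TSS, and its peak reaches to within 1 kb of it, so a member need not be the core promoter itself.

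The lists are the peaks called by the authors in each library separately, and nothing in them puts the libraries on a common scale. The presence of a peak, the share of members with a peak and the rank of a peak within its own list were therefore compared, and not peak heights. After filtering, ATAC libraries had between 5976014 and 7883648 tags, ATRX libraries between 4104486 and 15506154, H3K9me3 libraries between 5435286 and 13898785, and G4 libraries between 2961038 and 24588605. The lists differed in length, most of all those of ATRX, whose scramble KD lists had 7321 and 13652 peaks and whose TERRA KD lists had 41384 and 21718. Where a share is given with an interval, it is the 95% Wilson interval and covers counting error only. With 2 libraries against 2, the smallest p that the exact permutation test can give is 0.33, and with 4 libraries the smallest of the exact sign-flip test is 0.13, so no comparison below could pass a threshold of 0.05.

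The members were the longer and stronger ATAC peaks. Their median length was 725 bp (quartiles 527 and 936), against 579 bp for the 42237 stable peaks farther from a TSS (stable distal peaks) and 328 bp for the 1325 promoter peaks that were missing from at least 1 list. Median pileup, the number of extended ATAC reads stacked at the summit, was 20 and 32 in the scramble KD libraries and 25 and 33 in those of TERRA KD. For the stable distal peaks it was 13, 18, 14 and 19 in the same order. By fold enrichment the median member stood at percentile 71.1, 77.9, 77.01 and 79.4 of its own list, in the same order of libraries. Presence in all 4 lists was reached by 91.6% of the promoter peaks and by 67.2% of the distal ones. These values follow from the rule and from peak strength, and carry no test. At the limit of the rule, 211 members lay in the last 100 bp inside it and 168 stable peaks in the first 100 bp outside it, with median lengths of 570 and 546 bp and a median pileup of 15 in both. G4 lay on 36.5%, 59.7%, 45.5% and 10.9% of the former and on 35.1%, 60.1%, 39.9% and 10.1% of the latter.

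The members lay close to the start of genes. A TSS fell inside 9883 members (68.6%), and the median summit was 33 to 37 bp downstream of the nearest TSS in every ATAC list, with 62.3% to 65.3% of the summits within 250 bp of it. In all, 14834 of 26182 genes (56.7%) had a member within 1 kb of their TSS. The share was 62.5% among 21000 protein-coding genes, 38.8% among 3319 lncRNA genes, 19.5% among 1228 microRNA genes and 22.04% among 422 transcribed pseudogenes. On the autosomes the share ranged from 48.2% on chromosome 7 to 66.6% on chromosome 8, and it was 47.8% on the X.

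The share of genes with a stable promoter peak ranged from none to all between gene groups. All 78 mitochondrial ribosomal protein genes and all 13 subunits of RNA polymerase II had a member, as did 79 of 80 cytosolic ribosomal protein genes, 37 of 39 proteasome subunits and 13 of 14 glycolysis genes. Among 25 core pluripotency genes 23 had one, including Pou5f1, Sox2 and Klf4, while Nanog and Esrrb did not. Of 15 fibroblast genes, a check for feeder cells, 6 had a member, including Col1a1, Col1a2 and Thy1, and of 20 regulators of the germ layers 12 had one, including Mixl1, Eomes and Gata4. At the other end were 12 of 1125 olfactory receptor genes, 3 of 350 vomeronasal receptor genes, 3 of 15 genes of adult tissues and none of 11 genes of the two-cell stage. ATAC peaks do not measure expression, and the part of residual feeder cells in the 6 fibroblast promoters was not tested. All these shares are set beside 56.7% over all genes.

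Median GC content of the 300 bases at the summit was 61.7% in members (quartiles 56.3% and 66.3%) and 51.3% in stable distal peaks, and the median ratio of observed to expected CpG was 0.712 and 0.276. By the usual criteria for a CpG island (GC of at least 50% and a ratio of at least 0.6, applied here to 300 bases), 9368 members (65.0%) were island-like, against 10.8% of the stable distal peaks. A G4 motif was found somewhere in 5908 members (41.0%) and in 14.8% of the stable distal peaks, although the longer members offered more bases to hold it. Within 300 bases at the summit the shares were 19.6% and 7.56%, and 18.6% of all 32851 RefSeq promoter windows of this length (250 bases before to 50 after a start) held one.

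Short words of known factors were counted on both strands in the same 300-base windows. The GC box GGGCGG, bound by SP and KLF factors, was present in 53.6% of members, 17.6% of stable distal peaks and 35.7% of all RefSeq promoters, and its letters can overlap a G4 motif. The ETS word CCGGAAGT was present in 4.94% of members and 0.633% of distal peaks, the NRF1 core GCATGCGC in 3.37% and 0.828%, and the cyclic AMP response element TGACGTCA in 2.14% and 0.410%. Among all RefSeq promoters these 3 words were present in 3.89%, 2.71% and 1.79%. The order was turned for the TATA box TATAAA (4.55% and 10.3%), the YY1 word AAGATGGCG (2.10% and 6.65%), the octamer ATGCAAAT of OCT4 (1.15% and 3.35%) and the telomeric repeat TTAGGG (11.2% and 15.4%), for which all RefSeq promoters gave 13.6%, 1.4%, 1.74% and 10.6%. The CCAAT box was about as frequent in members as in distal peaks (33.5% and 33.1%, with 37.4% of all promoters). These words are letters in a window, and no binding was measured.

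G4 was the mark that the stable promoter peaks carried most. A G4 peak lay on 48.5% (6984) and 62.9% (9062) of the members in the scramble KD libraries, and on 55.5% (8001) and 7.93% (1143) in those of TERRA KD. The library of TERRA KD replicate 2 stood apart from the other 3, which all had G4 on close to or above 50% of the members, and the 2 conditions overlapped. The mean fell from 55.7% ± 10.2 (SD, n = 2) to 31.7% ± 33.7 (SD, n = 2), a difference of -24.0 percentage points (exact permutation test, two-sided, p = 0.667). In replicate 1 the share was 7.06 points higher in TERRA KD and in replicate 2 it was 55.0 points lower, so the direction of the mean rests on the library of TERRA KD replicate 2. Over all 78571 ATAC peaks of the list, members included, the shares were 21.5% and 47.3% in scramble KD compared with 29.8% and 14.9% in TERRA KD. The 4 libraries differed in depth and in the number of peaks called, with 140119 and 389434 peaks in scramble KD, against 173699 and 225024 in TERRA KD, and the 2 libraries of each condition shared an input. The part of depth and of peak calling in the difference was not tested.

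**Figure D1:**
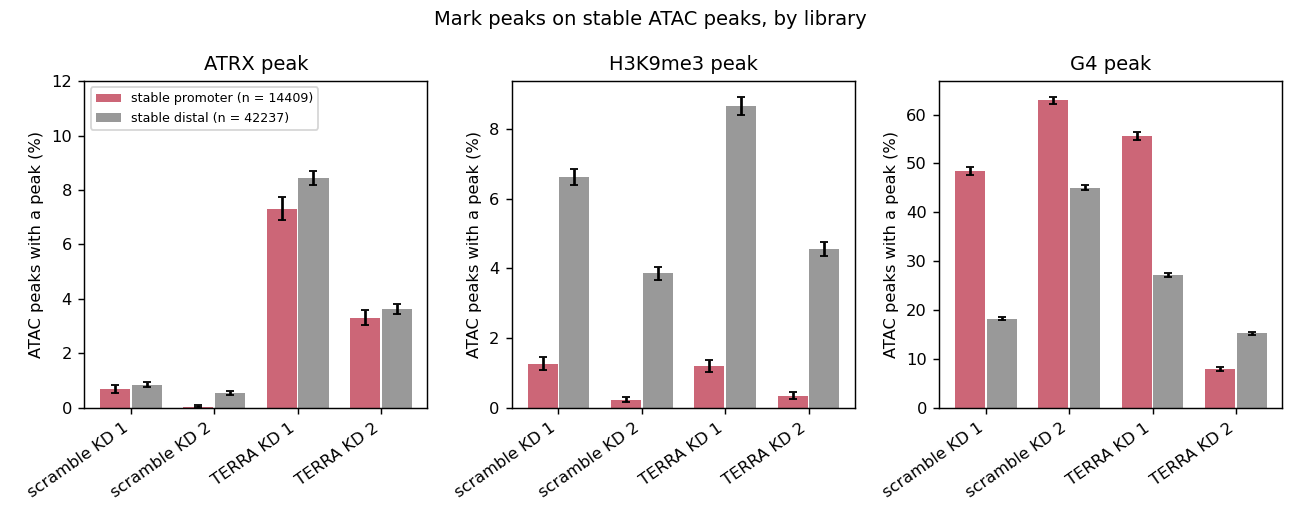
Share of stable promoter peaks (red, n = 14409) and stable distal peaks (grey, n = 42237) that overlapped an ATRX, H3K9me3 or G4 peak in each library, in percent, with 95% Wilson intervals that cover counting error. G4 lay on 48.5%, 62.9%, 55.5% and 7.93% of the promoter peaks, and H3K9me3 on at most 1.25%.

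Compared with stable distal peaks, members carried G4 more often in 3 libraries and less often in the fourth. The share was 30.2, 17.9 and 28.4 percentage points higher on members in scramble KD replicates 1 and 2 and TERRA KD replicate 1, and 7.34 points lower in TERRA KD replicate 2, a mean of 17.3 ± 17.3 points (SD, n = 4, exact sign-flip test, two-sided, p = 0.25). Without the library of TERRA KD replicate 2 the mean was 25.5 points. When the distal peaks were weighted to the GC content of the members, they carried G4 in 44.6%, 69.0%, 58.3% and 21.3% of cases, so that the difference became 3.82, -6.15, -2.74 and -13.4 points and its mean -4.61 (exact sign-flip p = 0.375). With 300 bases at the summit in place of the whole peak, the GC-weighted mean was -7.28 points and negative in all 4 libraries (exact sign-flip p = 0.13, the smallest possible).

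Across the GC range the curves crossed in 3 of the 4 libraries, while in TERRA KD replicate 2 members lay below distal peaks in all 5 classes. In the class of lowest GC (up to 55.0%), G4 lay on 26.9% of members and 5.89% of distal peaks in scramble KD replicate 1, and on 35.9% and 9.77% in TERRA KD replicate 1. This class has no lower limit and held 3035 members and 28552 distal peaks, so their GC may still differ within it. In the fourth class (64.0% to 67.3% GC) the order had turned, with 59.9% of 2770 members and 70.2% of 2621 distal peaks in scramble KD replicate 1 and 64.3% and 85.5% in TERRA KD replicate 1. Scramble KD replicate 2 gave 45.3% and 28.7% in the lowest class, and 70.9% and 84.3% in the fourth. In TERRA KD replicate 2 the members were between 7.08% and 8.79% in all 5 classes, while the distal peaks went from 9.76% to 31.2% and back to 14.6%. The rise of G4 with GC seen on the members in the other 3 libraries was not seen in that library.

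**Figure D2:**
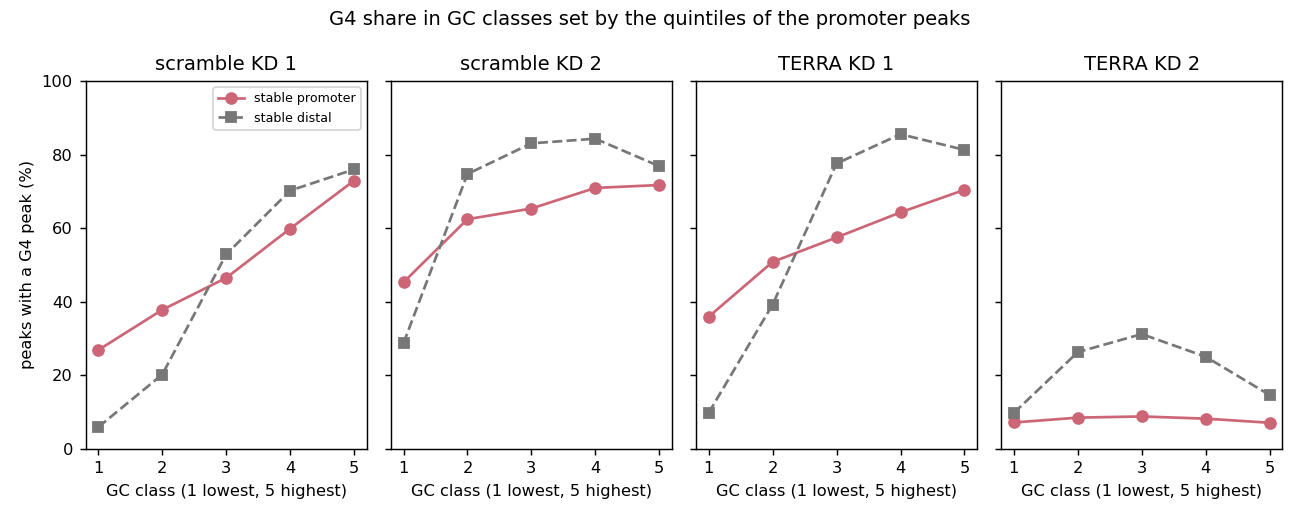
Percent of stable promoter peaks (red circles) and stable distal peaks (grey squares) with a G4 peak in 5 classes of GC content, whose limits are the quintiles of the promoter peaks, in each library. In scramble KD replicate 1 the promoter peaks rose from 26.9% to 72.9%, while in TERRA KD replicate 2 they stayed between 7.08% and 8.79%.

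A G4 motif in the member went with G4 peaks in every library, though by little in TERRA KD replicate 2. G4 lay on 59.1%, 68.3%, 62.9% and 8.29% of the 5908 members with a motif and on 41.1%, 59.1%, 50.4% and 7.68% of the 8501 without. The differences were 17.97, 9.22, 12.5 and 0.612 points, a mean of 10.1 ± 7.27 points (SD, n = 4, exact sign-flip p = 0.13). Members with a motif were also longer (median 819 and 666 bp) and higher in GC (63.7% and 60.3%), and their part was not tested. Members in the quintile of highest ATAC pileup carried less G4 than those in the lowest in all 4 libraries. From the lowest to the highest quintile of pileup the share went from 50.2% to 44.2% and from 68.4% to 54.7% in scramble KD and from 61.9% to 46.3% and from 13.6% to 3.68% in TERRA KD. Median GC was 62.3% in the quintile of highest pileup and 59.3% in the lowest, and the part of GC was not tested.

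G4 peaks on members ranked below the middle of the G4 peaks of their own list, as did those on stable distal peaks. On members the median percentile by fold enrichment was 45.1 and 23.6 in scramble KD, against 23.2 and 14.2 in TERRA KD. Scramble KD replicate 2 and TERRA KD replicate 1 were thus nearly equal, and the difference of means was -15.6 (exact permutation test p = 0.33, the smallest possible). The lists differ in length, and when the lists of each replicate number were held to equal numbers of top-ranked peaks the difference was -13.1 with the conditions overlapping (exact permutation p = 1). By an overlap of at least 1 bp, members held 4.79%, 2.22%, 4.32% and 0.489% of the peaks of the 4 G4 lists. They covered 0.411% of the bases of the sequenced genome. Since peaks have length, more of them would touch a member by chance than this share of bases, so it is not a background for the 4 shares. The median G4 peak on a member rested on 7 and 37 tags in scramble KD compared with 16 and 26 in TERRA KD.

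The most frequent combination, G4 in the 3 lists without that of TERRA KD replicate 2, held 3743 members, 2820 had no G4 peak in any list, and 570 (3.96%, against 4.42% of all ATAC peaks) had one in all 4. Of the 5409 members with G4 in both scramble KD lists, 4313 (79.7%) also had it in TERRA KD replicate 1 and 615 (11.4%) in TERRA KD replicate 2, against 83.5% and 27.3% of the 13779 such peaks over the whole ATAC list. G4 in both scramble KD lists and in neither TERRA KD list was seen on 1051 members (7.29%, against 2.52% of all ATAC peaks and 1.76% of the stable distal ones). Only peaks with G4 in both scramble KD lists can show this. They made up 37.5% of members, 17.5% of all ATAC peaks and 15.4% of the stable distal ones, so the shares start from unlike levels. The reverse, G4 in both TERRA KD lists and in neither scramble KD list, was seen on 44 (0.305%, against 0.284% of all ATAC peaks). If TERRA KD replicate 2 is left aside, 1096 members (20.3% of the 5409, against 16.5% over the whole ATAC list) had G4 in both scramble KD lists and lacked it in TERRA KD replicate 1. G4 in TERRA KD replicate 1 but not in scramble KD replicate 1 was seen on 2719 members (18.9%), against 1702 (11.8%) the other way. Over all ATAC peaks the counts were 10082 (12.8%) and 3560 (4.53%), so the tilt toward TERRA KD replicate 1 was in the same direction over the whole list.

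**Figure D3:**
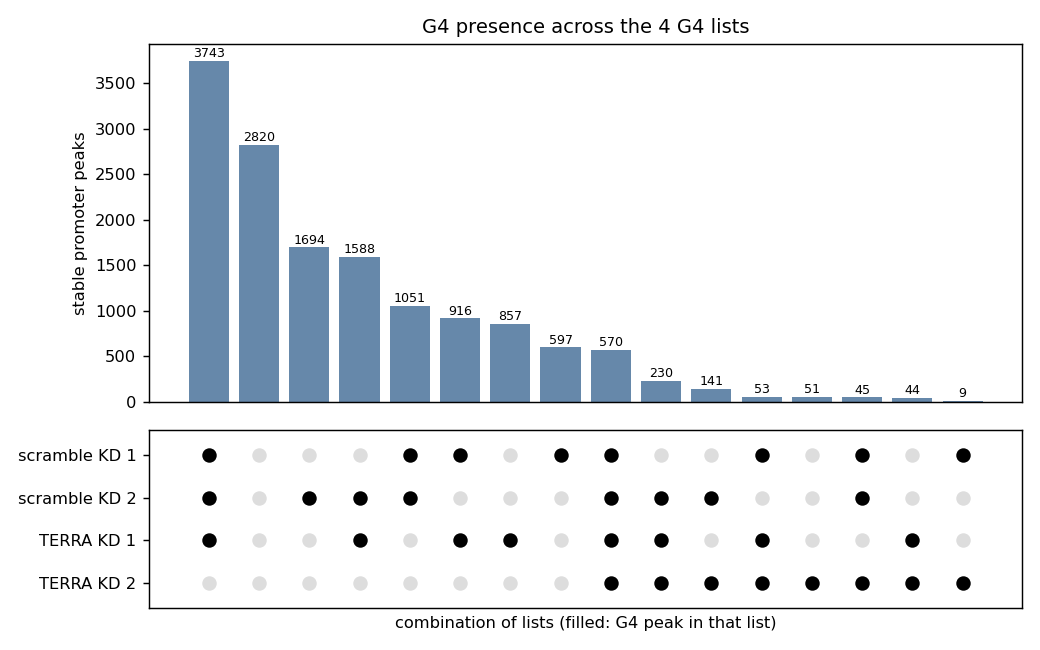
Number of stable promoter peaks (bars) with each combination of presence and absence of a G4 peak in the 4 G4 lists (filled circles: present). The tallest bar, 3743 peaks, lacks G4 in TERRA KD replicate 2 alone, and 1051 peaks lack it in both TERRA KD lists and have it in both scramble KD lists.

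The 570 had a median GC of 64.0% and a G4 motif in 52.3% of cases, and the 2820 had 56.7% and 26.3%. The median ATAC pileup was 14 on the 570 and 25 on the 2820. Named by the strength of their weakest peak, the leading members with G4 in all 4 lists were n-R5s121 and n-R5s124 of the 5S ribosomal RNA array, H2-Q6 (a class I histocompatibility gene), Gpha2 (the alpha subunit of a glycoprotein hormone) and Zfp853 (a zinc finger gene). At Gpha2 the G4 fold enrichment over input was 24.4 and 8.43 in scramble KD, against 13.1 and 5.10 in TERRA KD, and the ATAC pileup was 21 and 32 against 30 and 25. The G4 folds cannot be compared between libraries, whose depths differ. The leading members with G4 in both scramble KD and neither TERRA KD list were Tspyl3 (a relative of the nucleosome assembly proteins), Cadm4 (a cell adhesion molecule), Rtn2 (a reticulon of the endoplasmic reticulum), C1rl (a complement protease) and Mvb12a (a subunit of the ESCRT-I sorting complex). Tspyl3 had G4 folds of 27.1 and 7.28 in the scramble KD lists and an ATAC pileup of 11, 26, 13 and 24 in the 4 libraries. Mvb12a had G4 folds of 25.5 and 12.5 and a pileup of 44, 66, 53 and 60.

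The gene groups carried G4 to different extents. The 72 members at cytosolic ribosomal protein genes carried G4 in 20 and 25 cases in scramble KD compared with 20 and 0 in TERRA KD. Rpl3, a protein of the large subunit, had none in any list, and Rpl5 had folds of 13.6, 3.45 and 5.05 in all lists but that of TERRA KD replicate 2. The 63 members at mitochondrial ribosomal protein genes carried it in 14, 30, 22 and 1 cases, and the 24 at pluripotency genes in 7, 14, 12 and 1. At the other end, the 24 members in the Hox clusters, regulators of body patterning, carried G4 in 12, 21, 18 and 1 cases, and the 14 at regulators of the germ layers in 9, 12, 13 and 1. Among 10 members at genes with well-known G4 promoters, the counts were 4, 7, 6 and 1. Myc had a G4 peak in scramble KD replicate 2 only (fold 5.15) and Kit in scramble KD replicate 1 only (fold 16.3). These counts stand beside shares of 48.5%, 62.9%, 55.5% and 7.93% over all members.

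G4 summits lay farther into the gene than ATAC summits. The median G4 summit lay 209 and 286 bp downstream of the TSS in scramble KD, against 265 and 296 bp in TERRA KD, and 71.5% to 78.9% of the summits were downstream, against 55.1% to 56.0% of the ATAC summits on the same members. The spread was wide in TERRA KD replicate 2, with quartiles at -114 and 864 bp. ATRX summits had medians of 122, 592, 35.5 and 290 bp in the 4 lists, the second over 7 members, and no common side of the TSS held most of them in TERRA KD replicate 1 (52.2% downstream).

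**Figure D4:**
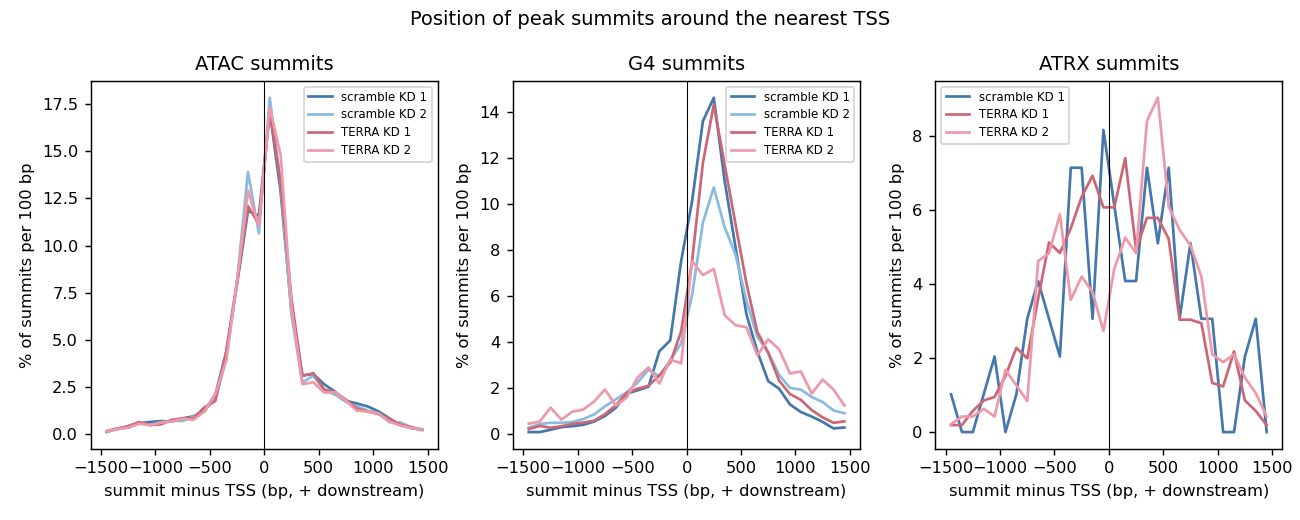
Position of ATAC, G4 and ATRX summits on the stable promoter peaks relative to the nearest TSS (bp, positive downstream), as percent of the summits on members in bins of 100 bp, by library. ATAC summits centred at 33 to 37 bp and G4 summits at 209 to 296 bp, and ATRX scramble KD replicate 2 is left out because it had 7 members.

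ATRX peaks were rare on the members in scramble KD and more frequent in TERRA KD. They lay on 0.680% (98 members, interval 0.558% to 0.828%) and 0.0486% (7 members, 0.0235% to 0.100%) in scramble KD compared with 7.31% (1054) and 3.3% (476) in TERRA KD. Both TERRA KD libraries were above both scramble KD libraries. The mean went from 0.364% ± 0.447 (SD, n = 2) to 5.31% ± 2.84 (SD, n = 2), a difference of 4.94 percentage points (exact permutation test, two-sided, p = 0.33, the smallest possible), made of 6.63 points in replicate 1 and 3.25 in replicate 2. Over all ATAC peaks of the list the shares were 0.739% and 0.437% in scramble KD, against 6.97% and 3.21% in TERRA KD, so the members stood close to the background of open chromatin in both TERRA KD libraries. The ATRX lists as a whole grew in the same direction, and members held 1.34% and 0.0513% of the scramble KD peaks and 2.59% and 2.21% of the TERRA KD peaks.

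The ATRX peaks on members were weak. The median peak rested on 7 and 14 tags in scramble KD compared with 5 and 11 in TERRA KD, with a median -log10 p of 2.27, 2.46, 2.40 and 2.48, where the authors' limit of p = 0.01 is 2. With only the peaks of -log10 p of at least 5, the difference between conditions was 0.250 points, and with an overlap of at least 50% of the ATAC peak it was 2.10 points. When the longer list of each replicate number was cut to the number of peaks of the shorter, by p, the difference was 1.32 points. By fold enrichment the median ATRX peak on a member stood at percentile 49.3 and 83.2 of its list in scramble KD, against 39.9 and 42.5 in TERRA KD. The value of 83.2 came from 7 peaks. ATRX peaks on stable distal peaks stood at 49.3, 70.2, 39.9 and 59.1 in the same order. On members the difference between conditions was -25.1 (exact permutation p = 0.33, the smallest possible). It was -18.0 with such lists of equal length (exact permutation p = 0.667) and -1.57 when the ATAC peaks of TERRA KD replicate 2 served as the base list.

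Members did not carry ATRX more often than stable distal peaks in any library. The difference was -0.160, -0.479, -1.12 and -0.319 percentage points, a mean of -0.519 ± 0.419 (SD, n = 4, exact sign-flip p = 0.13, the smallest possible), and -1.42 with the distal peaks weighted to the GC content of the members. Within the members, the quintile of highest ATAC pileup carried ATRX more often than the lowest in all 4 libraries. The lowest had 0.243%, 0, 4.48% and 2.12% and the highest 0.867%, 0.139%, 9.51% and 3.92%, each over 2882 members. Peaks in the highest quintile were also longer (median 898 bp against 458 bp) and so offered more bases to overlap. The part of length was not tested.

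Of 1054 members with ATRX in TERRA KD replicate 1 and 476 in replicate 2, 83 were shared (0.576% of members), 7.87% of the first and 17.4% of the second. Over all ATAC peaks of the list, 516 were shared (0.657%), 9.43% of the first and 20.4% of the second, so the overlap on members was close to that of the whole list. ATRX in both TERRA KD lists and in neither scramble KD list was seen on 74 members (0.514%, against 0.452% of all ATAC peaks and 0.571% of the stable distal ones). No member had ATRX in both scramble KD lists and in neither TERRA KD list, a combination seen on 0.00382% of all ATAC peaks. With peaks of -log10 p of at least 5 ATRX in both TERRA KD lists alone was seen on 10 members, with an overlap of at least 50% on 39, and with lists of equal length on 27.

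Of these 74, the 10 that the ranking placed first among named genes were 5S ribosomal RNA genes, which make the smallest RNA of the large ribosomal subunit, and 15 of the 74 lay in the 5S array. The other 59 lay outside it, and 52 of the 74 were at protein-coding genes. The 10 leading genes outside the array, named after the values were seen, were Ctxn1 (a cortexin of neuronal membranes), Trim45 (an E3 ubiquitin ligase), Fbln2 (fibulin of the extracellular matrix), Hsbp1 (a binding partner of heat shock factor), Islr2, Unc13a (a priming factor of synaptic vesicles), Il3ra (the interleukin-3 receptor alpha chain), Tmem178b, Dmrtc1c1 and Camk1 (a calcium-dependent kinase). Ctxn1 had ATRX folds of 14.3 and 4.26 in the TERRA KD lists and an ATAC pileup of 48 and 83 in scramble KD compared with 76 and 77 in TERRA KD. Fbln2 had ATRX folds of 15.0 and 4.26 and a pileup of 13, 19, 22 and 31. In replicate 2 the folds of these 10 genes lay between 4.08 and 5.68, at or near the median of 4.26 in that list. G4 lay on 58, 61, 59 and 14 of the 74 members in the 4 libraries (78.4%, 82.4%, 79.7% and 18.9%, against 48.5%, 62.9%, 55.5% and 7.93% of all members). H3K9me3 lay on 7, 2, 11 and 8 of them (9.46%, 2.70%, 14.9% and 10.8%, against 1.25%, 0.222%, 1.19% and 0.340%). The 15 members in the 5S array held 15, 12, 12 and 5 of these G4 counts and 2, 1, 7 and 3 of the H3K9me3 counts. On the 59 outside the array the shares were 72.9%, 83.1%, 79.7% and 15.3% for G4 and 8.47%, 1.69%, 6.78% and 8.47% for H3K9me3. The 74 members were longer than all members (median 799 bp against 725 bp) and higher in GC (64% against 61.7%). A G4 motif lay in 56.8% of them, against 41.0% of all members. The part of these traits was not tested.

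ATRX in all 4 lists was seen on 4 members (0.0278%, against 0.109% of all ATAC peaks), at Vmn2r29, Disp3 and Erdr1. Erdr1 had a member each on X and Y, where it is annotated in the region shared by both. The study gives the cells as XX, so the Y member is not a separate locus of these cells. At Vmn2r29, a vomeronasal receptor gene, ATRX folds were 44.6 and 6.99 in scramble KD, against 207 and 39.8 in TERRA KD, with an ATAC pileup of 84, 71, 63 and 69. Erdr1 had folds of 29.7 and 6.49 in the scramble KD lists and 43.7 and 25 in the TERRA KD lists, and Disp3, of the dispatched family, had 31.8 and 4.72 against 28.5 and 4.97. Pgk1, the phosphoglycerate kinase of glycolysis, had ATRX in 3 lists, with folds of 60.1 in scramble KD replicate 1 and of 33.1 and 6.39 in TERRA KD. None of these ATRX folds can be compared between libraries, which are not on a common scale. Among genes shown by the study, Nfatc4, Igfbp4 and Cxcl14 had an ATRX peak on their member in TERRA KD replicate 1 (folds 9.5, 22.5 and 5.71) and in no other list, and the members at Dnajb6, Ppard, Ltbr, Shroom4, Nfe2l2, Itpr3 and Mid1 had none in any list. For Nfatc4, Igfbp4, Shroom4, Nfe2l2 and Itpr3 the study shows ATRX coverage near the TSS, normalised to input. A listed peak on a member is another measure. The member summits of Nfatc4, Igfbp4 and Itpr3 also lie at -1321, -1186 and -1026 bp from the TSS. Absence on a member is therefore not absence of ATRX at the TSS.

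ATRX and G4 were compared on the members within each condition and replicate number. G4 lay on 48.0% of the 98 members with ATRX and 48.5% of those without in scramble KD replicate 1, and on 71.4% of 7 and 62.9% in replicate 2. In TERRA KD it lay on 55.9% of 1054 members with ATRX and 55.5% of those without in replicate 1, and on 14.5% of 476 and 7.71% in replicate 2. The differences of -0.514, 8.54, 0.383 and 6.79 percentage points averaged 3.80 ± 4.53 (SD, n = 4, exact sign-flip p = 0.375). The value moved with the setting. With peaks of -log10 p of at least 5 in both assays the differences were 64.4, 67.2, 30.2 and 12.0 points, a mean of 43.5 (exact sign-flip p = 0.13, the smallest possible). These rested on few members, since ATRX peaks of that strength lay on 0.0416% and 0.0208% of all members in scramble KD and on 0.298% and 0.264% in TERRA KD. In both TERRA KD lists they included n-R5s149, n-R5s136, n-R5s133 and n-R5s121, near-identical copies of the 5S array described below that are counted here as separate members. The part of the array in these differences was not tested. With an overlap of at least 50% of the ATAC peak the mean was 20.5. On the autosomes and X only, which leaves out the Y member of Erdr1, the mean was 2.47 (exact sign-flip p = 0.375). At protein-coding genes alone it was -0.325 (exact sign-flip p = 0.875). Of the 1051 members with G4 in both scramble KD lists and neither TERRA KD list, 108 (10.3%) had an ATRX peak in at least 1 TERRA KD list, close to the 10.04% of all members, and 2 had it in both (0.190%, against 0.576% of all members).

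H3K9me3 peaks were rare on the members in both conditions. It lay on 1.25% (180) and 0.222% (32) of them in scramble KD compared with 1.19% (171) and 0.340% (49) in TERRA KD. The conditions overlapped, and the means of 0.736% ± 0.726 and 0.763% ± 0.599 (SD, n = 2 each) differed by 0.0278 percentage points (exact permutation p = 1), made of -0.0625 points between the replicate 1 libraries and 0.118 between those of replicate 2. Over all ATAC peaks of the list H3K9me3 lay on 5.08% and 2.89% in scramble KD, against 6.15% and 3.49% in TERRA KD. Members were below stable distal peaks in every library, by 5.37, 3.63, 7.46 and 4.21 points, a mean of -5.17 ± 1.69 points (SD, n = 4, exact sign-flip p = 0.13, the smallest possible). Weighting the distal peaks to the GC content of the members took this to -7.04 points. The peaks were broad in replicate 1, with a median length of 3790 and 5093 bp on members, and short in replicate 2, with 568 and 641 bp, so the peaks of replicate 1 were longer than the members themselves.

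Of 180 and 171 members in the replicate 1 lists 109 were shared (0.756% of members), 60.6% of the first and 63.7% of the second, against 2887 (3.67%) over all ATAC peaks of the list, 72.4% of the first and 59.7% of the second. H3K9me3 in all 4 lists was seen on 5 members (0.0347%, against 0.853% of all ATAC peaks), among them Vmn2r29, Rnu1b1 (a U1 small nuclear RNA gene) and Zfp991 (a zinc finger gene). Vmn2r29 had H3K9me3 folds of 113 and 8.82 in scramble KD compared with 244 and 23.7 in TERRA KD, and Zfp991 had 45.9 and 5.41 against 29.5 and 4.14. H3K9me3 folds, too, cannot be compared between libraries. By gene group, the 209 members at zinc finger genes Zfp400 to Zfp999 carried H3K9me3 in 14, 5, 11 and 4 cases. Among 8 members at germline genes silenced in ES cells the counts were 4, 0, 2 and 0, and included Sycp1 and Sycp2 of the synaptonemal complex, both with a peak in the 2 replicate 1 lists. The members at ribosomal protein, proteasome, pluripotency and Hox genes carried none in any list, but at shares of 1.25% or less over all members, groups of 24 to 72 members would hold at most about 1 and cannot be set apart from the background. Terf1, which binds telomeric DNA in shelterin, had H3K9me3 on its member in 3 lists, with folds of 26.1 in scramble KD replicate 1 and 21.8 and 8.90 in TERRA KD. Members with both an ATRX and an H3K9me3 peak numbered 8 of 98 with ATRX (8.16%) and 2 of 7 (28.6%) in scramble KD, against 49 of 1054 (4.65%) and 16 of 476 (3.36%) in TERRA KD. Of the members without ATRX, 1.20%, 0.208%, 0.914% and 0.237% carried H3K9me3. The ATRX and H3K9me3 libraries of one condition and replicate number shared an input, so these counts are not independent.

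The 5S ribosomal RNA array on chromosome 8 supplied 22 members. It holds 32 annotated genes in 83.3 kb, 22 of them with a member within 1 kb. ATRX lay on none of its 22 members in either scramble KD list and on 16 and 21 in TERRA KD, with folds of 5.71 to 29.7 in TERRA KD replicate 1 and 4.26 to 24.9 in TERRA KD replicate 2. G4 lay on 22 and 17 of them in scramble KD compared with 16 and 11 in TERRA KD, and H3K9me3 on 2, 1, 9 and 3. At n-R5s149, at the far end of the array, ATRX folds were 29.7 and 12.8 in TERRA KD, with an ATAC pileup of 68 and 87 in scramble KD, against 56 and 66 in TERRA KD. At n-R5s121 they were 8.57 and 7.81, with a pileup of 60, 77, 51 and 73. Neighbouring members can share 1 ChIP peak, and the 16 members of TERRA KD replicate 1 rested on 15 peaks. By p the best of these peaks ranked 137 of 41384 in its list, and the best in TERRA KD replicate 2 ranked 26 of 21718. Of the 32 genes, 31 are identical over their whole length and the other is 99.2% identical, so a read that lies wholly within a gene can fit many copies. The members also cover sequence between the genes, whose identity was not measured, and how such reads were placed is not stated. The array is therefore more cautiously read as 1 locus than as 22. Without it the ATRX difference between conditions was 4.82 points and 59 members kept the pattern of ATRX in both TERRA KD lists alone.

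**Figure D5:**
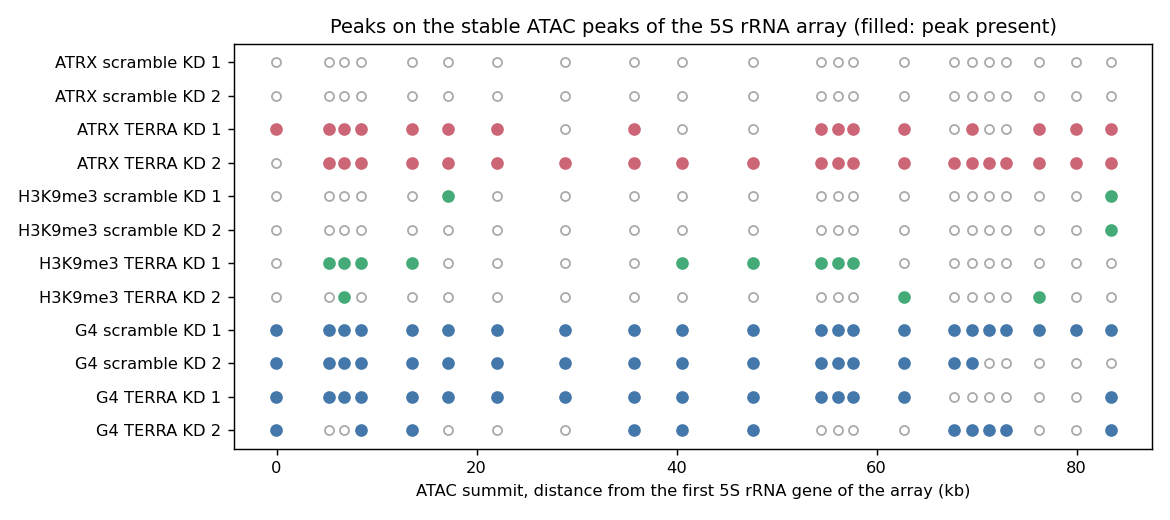
Stable ATAC peaks of the 5S ribosomal RNA array by distance of their summit from the first gene (kb), with filled circles where an ATRX, H3K9me3 or G4 peak lay on them in a given list. ATRX was present on 0 and 0 of 22 peaks in scramble KD compared with 16 and 21 in TERRA KD.

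Counted over all 12 ChIP lists, 2512 members (17.4%) carried no ATRX, H3K9me3 or G4 peak, against 39.95% of the stable distal peaks. G4 lay on 54.0%, 63.7%, 58.5% and 6.18% of island-like members and on 38.1%, 61.5%, 49.9% and 11.2% of the others, so the order turned in TERRA KD replicate 2. Members with starts on both strands within 1 kb (1926) carried H3K9me3 less often than those with starts on 1 strand (12483) in all 4 libraries, at 0.831%, 0, 0.623% and 0.156% against 1.31%, 0.256%, 1.27% and 0.369%. By gene type, G4 lay on 49.5%, 63.5%, 56.5% and 7.68% of 13102 members nearest a protein-coding gene and on 36.1%, 56.1%, 44.2% and 8.43% of 996 nearest a lncRNA gene.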

How the data were processed

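ATRX, H3K9me3 and G4 ChIP-seq and ATAC-seq were analysed from 16 peak lists of 16.7 mouse ES cells, 2 per assay and condition. The submitters' processing notes name Trim Galore 0.5.0, Bowtie2 2.3.4.1, SAMtools 1.9, deepTools 3.1.1, MACS2 and mm10. The authors called peaks per library at p = 0.01, with MACS 1.4.3 (ATRX, H3K9me3) or 1.4.2 (G4) against input, and for ATAC with MACS 2.2.7.1 without a control or a read shift in the recorded command. Per the file headers, the ChIP lists give the count of tags in each peak, a score of -10 log10 p and the fold enrichment over local background. The deposited false discovery rate, in percent, was not used. The ATAC lists deposited by the authors give the pileup signal, the fold enrichment and the -log10 p. No value is scaled between libraries.

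TSS were the most upstream curated RefSeq starts of 26182 genes on GRCm38, and the printed sequences are from the same RefSeq build. Members and marks were joined by an overlap of at least 1 bp. Shares and median ranks were compared between conditions by exact permutation of the 4 libraries (two-sided), and between classes of peaks with a two-sided exact sign-flip test over 4 libraries, using Python 3.11.15, numpy 2.4.6, pandas 2.3.3 and scipy 1.17.1. The code was tested on simulated data. The members and gene lists were chosen with earlier results of these data known. Named genes are the first examples of each list, up to 10 with ATRX in both TERRA KD and neither scramble KD list, up to 5 with a mark in all 4 lists or with G4 in both scramble KD and neither TERRA KD list, ordered by their worse rank by p, and genes named by the study. Clone-like symbols were passed over. Alternatives changed the p limit, the overlap, the TSS window and gene set, the base list, the G4 motif, the list length and the libraries used. A further sequence and a further gene named by the study are not reported here.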

Additional observations from a re-analysis of the deposited data

How the results depend on the processing

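Of 201 recomputed values, 157 from planned and 29 from added alternatives were classed as the same. For counts this meant a similar size, but for differences and ranks it meant the same sign only, whatever their size. The ATRX difference between conditions, 4.94 points in the main setting and 0.250 with the stricter p limit, was thus classed as the same. The number of members ranged from 12685 to 15767. With peaks of -log10 p of at least 5, the H3K9me3 difference between conditions was -0.00694 percentage points, and members with ATRX in both TERRA KD lists alone numbered 10 and those with G4 in both scramble KD lists alone 669. With an overlap of at least 50% the H3K9me3 difference was -0.0325, and 39 members had ATRX in both TERRA KD lists alone, as did 27 with equal numbers of top-ranked peaks. At protein-coding genes the H3K9me3 difference was 0 and the G4 difference by ATRX -0.325. The G4 difference between conditions was -14.8 points with the stricter p limit. Alternatives chosen after seeing the data turned the H3K9me3 difference to -0.00348 (5S rRNA genes left out) and -0.0139 (300 bases at the summit), and the G4 difference from distal peaks to -4.61 (distal peaks weighted to the members' GC) and -7.28 (the same with 300 bases). Leaving out a replicate number gave 3.25 to 6.63 points for ATRX, -0.0625 to 0.118 for H3K9me3 and -55.0 to 7.06 for G4 between conditions. It gave -0.0657 to 7.66 for G4 by ATRX and 5.26 to 29.3 for G4 against distal peaks. The cause of these changes was not tested.

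With the replicate number as a replicate block, the differences between conditions are the same by construction. They were 4.94 points for ATRX (exact sign-flip over 2 pairs, p = 0.5, the smallest possible), 0.0278 for H3K9me3 and -23.95 for G4 (both p = 1). For the ranks of G4 and ATRX peaks they were -15.6 and -25.1. With 2 pairs no p can fall below 0.5, so the block could not change a call. The labels do not say whether a shared number marks a shared culture. Depth limits absence: a member with no listed peak may still be enriched below the limit of its library.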
